A study of Mus musculus with 6 samples.

Results

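Markers of GABAergic interneurons were followed in the ribosome-associated RNA of mPFC D2 neurons. The set held 10 genes of the 47729 in the deposited table, taken from it by gene name: Gad1, Gad2, Slc32a1, Pvalb, Sst, Vip, Npy, Cck, Reln and Calb2. The table listed 33 transcripts for them, of 115220 in all, and a gene total is the sum of its transcripts' FPKM. FPKM is the number of sequenced fragments per kilobase of transcript, scaled to the sequencing depth of the library. The 6 libraries came from adult male C57BL/6 mice aged 2.5 to 3 months, which in both groups carried D2Cre, LSL-Flag-Cas9 and RiboTag. The 3 Ctrl libraries followed AAV GFP and the 3 Gsk3sKO libraries followed AAV Gsk3sgRNA/GFP, both injected into the mPFC, which was dissected 3 weeks later. Cre came from a bacterial artificial chromosome transgene with D2 receptor control, so Cas9 and the hemagglutinin-tagged Rpl22 of the ribosome were limited to cells that express it, and the control virus carried no sgRNA. The text read here does not say whether a library came from 1 mouse or from a pool, so each p-value rests only on how far these libraries spread, which could be technical.

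GABAergic interneurons are the local inhibitory cells of the cortex. They make GABA from glutamate with glutamate decarboxylase, load it into vesicles, and release it onto pyramidal cells and onto each other. Classes of them are told apart by the calcium-binding proteins and neuropeptides they contain: parvalbumin marks fast-spiking cells, somatostatin marks cells that contact dendrites, and vasoactive intestinal peptide marks cells that mostly contact other interneurons. Some of these markers are not private to interneurons, since cholecystokinin is also made by many pyramidal neurons.

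Read counts were not among the deposited values. From the steps between low FPKM, sequencing depth was put at about 45100000, 31900000 and 23500000 reads in Ctrl and 41300000, 28800000 and 30100000 reads in Gsk3sKO. This is approximate, since only between 10.5% and 21.4% of the low values lay within 0.01 of a whole read. The targeted gene, Gsk3b, had a total of 35.6, 53.8 and 56.5 FPKM in Ctrl and 36.9, 37.0 and 33.6 FPKM in Gsk3sKO, and its log2 fold change of -0.40 (standard error, SE, 0.19) did not pass the test. Its transcript ENSMUST00000023507 had no overlap between the groups, at 33.5, 34.7 and 36.2 FPKM against 24.8, 21.6 and 21.2 FPKM, as for 11.2% of all transcripts tested. It had a log2 fold change of -0.61 (SE 0.14, unadjusted limma p = 0.00448, adjusted limma p = 0.619, 2-sided exact permutation p = 0.1). This transcript therefore passed the test without adjustment, as 3.75% of all transcripts tested did in the lower direction, but not with adjustment. The other tested transcript, ENSMUST00000114750, was at 1.85, 18.7 and 20.0 FPKM against 11.9, 15.4 and 12.5 FPKM. These are RNA levels and do not measure the protein. The paper showed the knockout by staining in D2Cre/LSL-Flag-Cas9 mice, not in the RiboTag line of these libraries. In the stained mice most mPFC cells with both Flag-Cas9 and the sgRNA virus lacked GSK3β protein. It also reported mutated Gsk3b DNA and less GSK3β protein in Neuro2A cells given the sgRNA. Drd2, the gene of the D2 receptor that drives the tag, was present at 1.58, 6.02 and 14.1 FPKM in the Ctrl libraries and at 8.32, 5.96 and 7.28 FPKM in Gsk3sKO. Markers of other cell types were measured beside the members, and the summed FPKM of 10 astrocyte markers lay between 185 and 229 in Ctrl and between 193 and 240 in Gsk3sKO.

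All 10 members were measured and all passed the filter of a mean of at least 1 FPKM. The most abundant was Sst, at 822 ± 116 FPKM (SD, n = 3) in Ctrl, followed by Cck at 470 ± 49.6 FPKM (SD, n = 3). Gad1 stood at 157 ± 72.7 FPKM and Npy at 143 ± 25.0 FPKM, and these neighbours overlapped in Ctrl. Gad2, Slc32a1, Reln and Pvalb formed a middle range from 56.9 ± 12.6 FPKM for Gad2 to 25.2 ± 3.18 FPKM for Pvalb, in which each gene overlapped the next one down. Vip and Calb2 were the lowest, at 5.93 ± 2.16 and 5.40 ± 1.08 FPKM, and also overlapped. The order of the 10 means was the same in Gsk3sKO, where Reln and Pvalb and also Vip and Calb2 overlapped. Depth was not evenly shared, by reads estimated from the approximate depths. The reads behind a total came to between 161 and 368 per library for Calb2 and between 241 and 575 for Vip, against 12009 to 26543 for Sst.

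**Figure D1:**
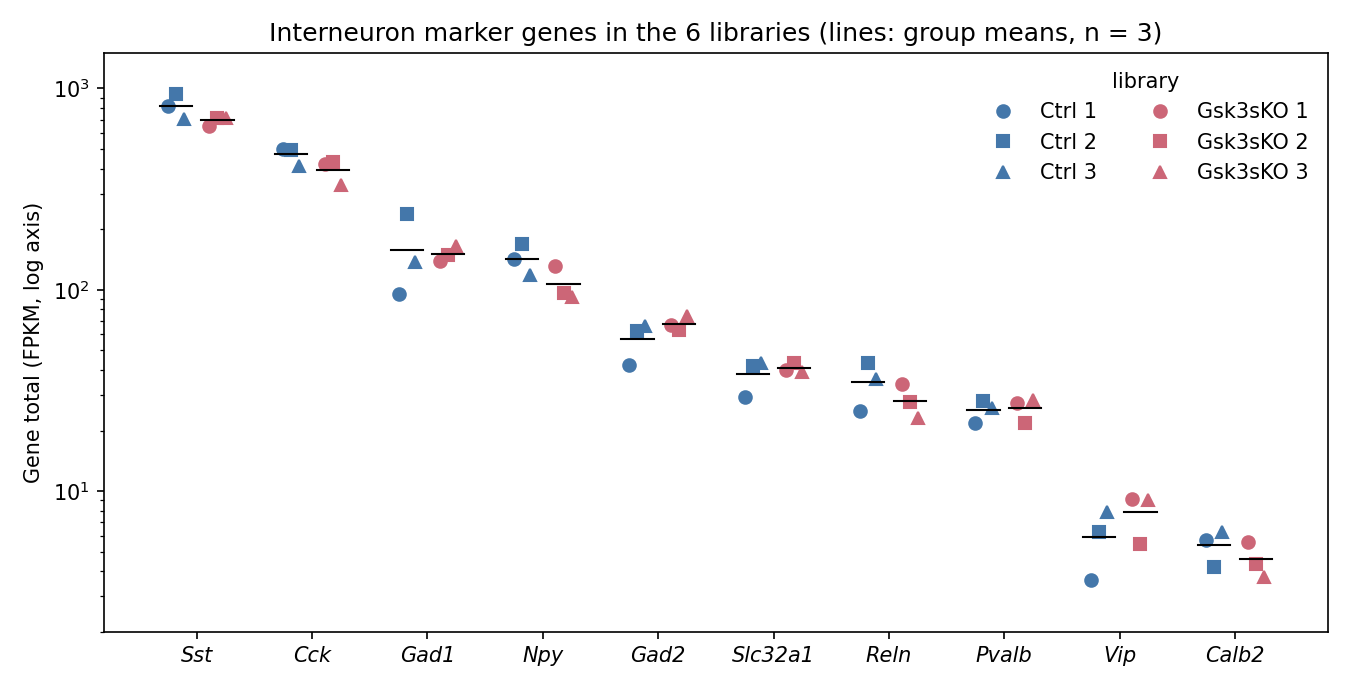
Gene totals of the 10 members in FPKM on a log axis, with 1 point per library (Ctrl blue, Gsk3sKO red, marker shape by replicate number) and a black line for each group mean (n = 3). The order runs from Sst at 822 FPKM in Ctrl to Calb2 at 5.40 FPKM, and the points of both groups overlap for every gene.

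Differences between the groups come from limma on log2(FPKM + 1), a scale on which the change of genes with low FPKM is understated. None of the 10 gene totals had an unadjusted p under 0.05 in limma, where 6.56% of the 12874 gene totals tested did (5.2% lower and 1.36% higher in Gsk3sKO, or 669 and 175 totals, and 502 and 307 with the libraries scaled by median ratios). None passed with Benjamini-Hochberg adjustment in limma either, against 0.0466% of all. The unadjusted p of the members ran from 0.0512 for Npy to 0.883 for Gad1 in limma, the adjusted p from 0.755 to 0.986, and the 2-sided exact permutation p from 0.2 to 0.9, where 0.1 is the smallest that 3 against 3 libraries allow. The groups did not separate fully for any member, against 12% of all gene totals tested (8.3% lower and 3.71% higher). The summed FPKM of the 10, in which Sst and Cck weigh most, lay between 1564 and 2029 in Ctrl. In Gsk3sKO this sum lay just below that range, between 1480 and 1562, and it was not tested. A log2 fold change above 0 was measured for 5 members (Gad1, Gad2, Slc32a1, Pvalb and Vip) and below 0 for 5 (Sst, Npy, Cck, Reln and Calb2). Their median was -0.08, beside -0.06 for all gene totals tested. In bulk RNA, fewer cells of a type and less RNA per cell cannot be told apart, so each value below is the level in the whole immunoprecipitate.

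**Figure D2:**
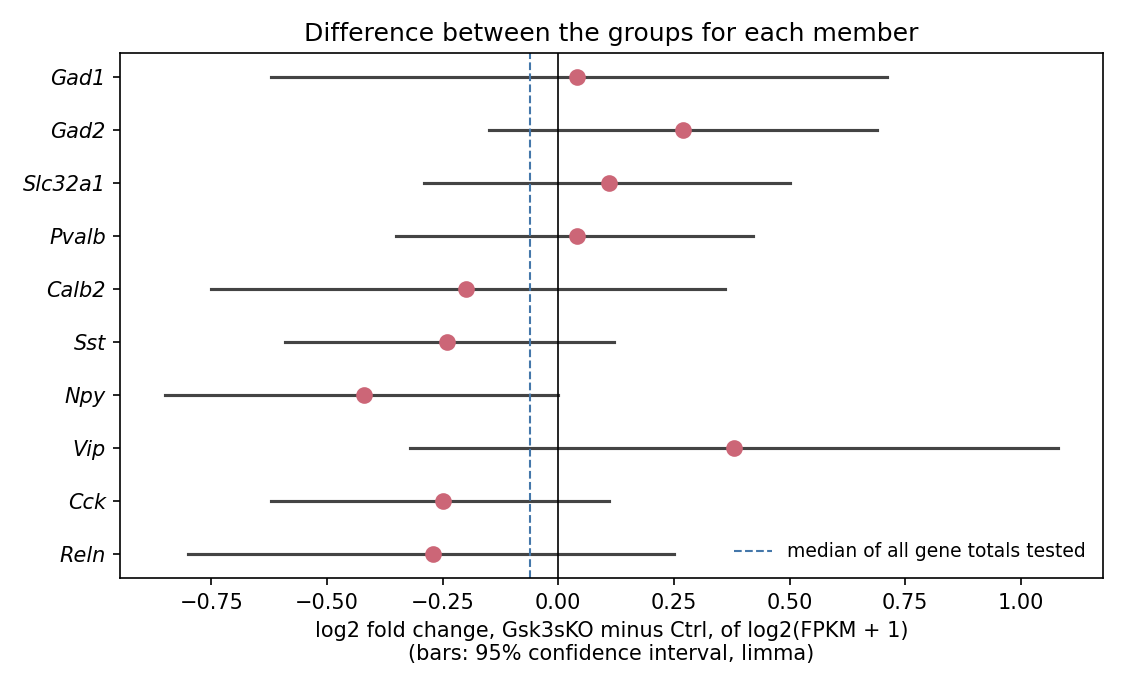
Difference between the groups for each member as log2 fold change (Gsk3sKO minus Ctrl, red points) with its 95% confidence interval from limma (bars). The dashed blue line is the median of all gene totals tested, -0.06, and all 10 intervals reach 0, that of Npy from -0.85 to 0.00.

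The enzymes and the transporter that define a GABAergic cell were present in every library. Gad1 and Gad2 encode the GAD67 and GAD65 forms of glutamate decarboxylase. Gad2 lies on the plus strand of chr2:22622205-22693874. The Gad2 total was 42.5, 62.4 and 65.8 FPKM in Ctrl and 66.7, 63.2 and 74.0 FPKM in Gsk3sKO. The Gsk3sKO mean was 119% of the Ctrl mean, and Ctrl replicate 1 was the one library well below the rest. A log2 fold change of 0.27 (95% interval -0.15 to 0.69, unadjusted limma p = 0.173, exact permutation p = 0.2) did not pass the test, and it was 0.08 without Ctrl replicate 1.

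Slc32a1 encodes VGAT, the transporter that fills vesicles with GABA, and lies on the plus strand of chr2:158610767-158615748 (GRCm38, as all positions here). Its total was 29.5, 41.8 and 43.4 FPKM in Ctrl and 40.1, 43.1 and 39.2 FPKM in Gsk3sKO. Apart from Ctrl replicate 1 the libraries lay close together. Between the groups the log2 fold change was 0.11 (95% interval -0.29 to 0.50, unadjusted limma p = 0.545, exact permutation p = 0.9), and it turned to -0.06 without Ctrl replicate 1. An opposite-strand gene, Gm14205, overlaps exons of Slc32a1, and whether reads were assigned by strand is not given in the sources used here. It was listed below 1 FPKM in each library.

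The Gad1 total was 95.7, 237 and 137 FPKM in Ctrl and 139, 149 and 165 FPKM in Gsk3sKO. Both the lowest and the highest of the 6 values were Ctrl libraries. The Gsk3sKO mean was 96.4% of the Ctrl mean, so the sign differed between means of FPKM and means of log2 values. A log2 fold change of 0.04 (95% interval -0.62 to 0.71, unadjusted limma p = 0.883, exact permutation p = 0.8) turned to -0.26 without Ctrl replicate 1 and was 0.39 without Ctrl replicate 2.

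In Ctrl replicate 2 the Gad1 total was divided between transcripts unlike in the other libraries. The full-length transcript ENSMUST00000094934, with 17 exons on chromosome 2 of GRCm38 from 70562042 to 70602014 and a coding length of 1779 bases, stood at 92.9, 14.2 and 118 FPKM in Ctrl. In Gsk3sKO it stood at 96.7, 108 and 90.7 FPKM. Its share of the Gad1 total was 6% in Ctrl replicate 2 and between 55% and 97.1% in the other libraries. In that library the transcript ENSMUST00000123330, which has 6 exons and a coding length of 748 bases, reached 99.4 FPKM, and the processed transcript ENSMUST00000140478 reached 88.9 FPKM.

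Since FPKM divides by length, reads moved to a shorter transcript raise the sum. With each transcript weighted by its length, an alternative added after the data were seen, Gad1 came to 315, 447 and 421 in Ctrl, in FPKM times kilobases of transcript. The Gsk3sKO libraries stood at 434, 429 and 425, a spread of 4.75 (SD, n = 3) against 70.0 in Ctrl. On this scale Ctrl replicate 2 was no longer apart, Ctrl replicate 1 was the only low library, and the log2 fold change was 0.14 (SE 0.15) and did not pass the test.

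Ctrl replicate 1 had the lowest value of all 6 libraries for 5 of the 10 members, namely Gad1, Gad2, Slc32a1, Pvalb and Vip. It was not the lowest for the peptide genes Sst, Npy and Cck, which stood at 816, 142 and 502 FPKM there. The same library had the lowest Drd2 value and the lowest sum of the 20 interneuron transcription factors, 90.0 FPKM against 94.6 to 129 in the others. Its sums of striatal, oligodendrocyte and endothelial markers were also the lowest, at 102, 131 and 21.4 FPKM. It was not the lowest for the other interneuron subclass markers (531 FPKM, against 524 in Gsk3sKO replicate 2). Nor was it for the genes of GABA uptake, breakdown and precursor supply (373 FPKM, against 370 in Ctrl replicate 3). Its estimated depth was the highest of the 6, but the estimate was weakest there, with 10.5% of low values near a whole read. The part of these differences in the results was not tested. Gsk3sKO replicate 3 had the lowest value for the remaining members Npy, Cck, Reln and Calb2, apart from Sst, which was lowest in Gsk3sKO replicate 1.

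**Figure D3:**
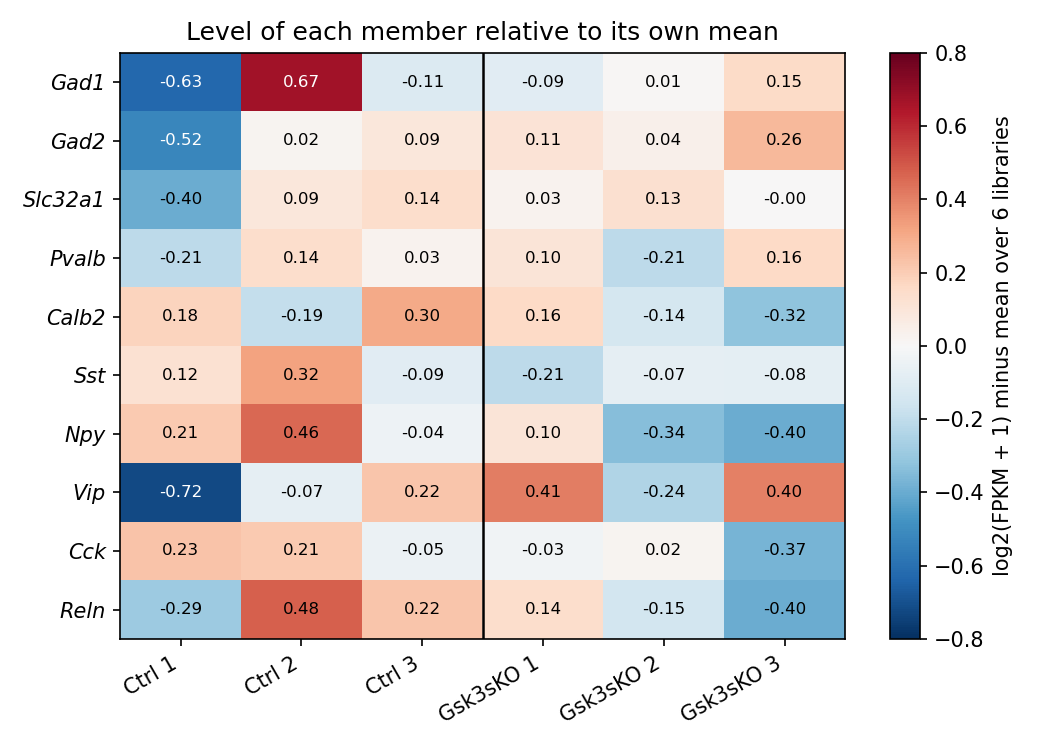
Level of each member in each library as log2(FPKM + 1) minus its mean over the 6 libraries (red above, blue below; Ctrl left and Gsk3sKO right of the line). Ctrl replicate 1 is at -0.63, -0.52, -0.40 and -0.72 for Gad1, Gad2, Slc32a1 and Vip, but at 0.12, 0.21 and 0.23 for Sst, Npy and Cck.

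Sst encodes the precursor of somatostatin, an inhibitory neuropeptide. It is shown with the 250 bases before its RefSeq start because it was the most abundant member and the only one whose window holds the full cAMP response element, TGACGTCA, the classic binding sequence of CREB. This palindrome, here in capitals, is in 1.55% of the 32851 windows of the same length in the RefSeq table for GRCm38.p6. RefSeq windows were found for 9 of the 10 members. The window lies on the minus strand of chr16:23890845-23891094. The GENCODE transcript measured here starts further upstream than the RefSeq start, so the end of the window, with the marked palindrome, lies inside that transcript.
Sst: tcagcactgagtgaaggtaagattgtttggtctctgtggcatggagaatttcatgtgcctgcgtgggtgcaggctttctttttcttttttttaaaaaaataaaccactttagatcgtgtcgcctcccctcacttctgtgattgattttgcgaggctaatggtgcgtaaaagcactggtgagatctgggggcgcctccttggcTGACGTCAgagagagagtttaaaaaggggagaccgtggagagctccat

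The Sst gene has 1 listed transcript of 2 exons, ENSMUST00000004480, on the minus strand of chr16:23889573-23890958, and its total was 816, 942 and 709 FPKM in Ctrl and 652, 717 and 714 FPKM in Gsk3sKO. Gsk3sKO replicate 1 lay below every Ctrl library, and the other 2 lay just above Ctrl replicate 3. The Gsk3sKO mean of 694 ± 36.3 FPKM (SD, n = 3) was 84.4% of the Ctrl mean. The log2 fold change was -0.24 (95% interval -0.59 to 0.12, unadjusted limma p = 0.171, exact permutation p = 0.3), or -0.13 without Ctrl replicate 2.

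Npy encodes neuropeptide Y, which many somatostatin cells and neurogliaform cells release, and lies on the plus strand of chr6:49822710-49829507. Its total was 142, 169 and 119 FPKM in Ctrl and 131, 96.8 and 92.4 FPKM in Gsk3sKO. Gsk3sKO replicates 2 and 3 lay below every Ctrl library and Gsk3sKO replicate 1 lay among them. The Gsk3sKO mean was 74.6% of the Ctrl mean. Npy had a log2 fold change of -0.42 (SE 0.19, unadjusted limma p = 0.0512, adjusted p = 0.755; 2-sided exact permutation p = 0.2). This was the member nearest the threshold, and it passed with some libraries left out: a log2 fold change of -0.55 without Ctrl replicate 3 and of -0.58 without Gsk3sKO replicate 1 had an unadjusted limma p under 0.05. It was not called without any of the other libraries, nor at -0.36 with each library rescaled to the median ratio.

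Cck encodes the precursor of cholecystokinin, on the minus strand of chr9:121489824-121495694. Its total was 502, 495 and 412 FPKM in Ctrl and 420, 433 and 332 FPKM in Gsk3sKO, where Gsk3sKO replicate 3 was the lowest and the other 2 lay between Ctrl replicates 3 and 2. Cck had a log2 fold change of -0.25 (95% interval -0.62 to 0.11, unadjusted limma p = 0.15, exact permutation p = 0.3), or -0.13 without Gsk3sKO replicate 3. Markers of excitatory neurons, which also make Cck, were summed over 14 genes to between 1687 and 1911 FPKM in Ctrl and between 1458 and 1746 FPKM in Gsk3sKO.

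Vip, on the plus strand of chr10:5639218-5647617, encodes vasoactive intestinal peptide and stood apart from the other peptide genes in the sign of its difference. Its total was 3.61, 6.27 and 7.90 FPKM in Ctrl and 9.10, 5.47 and 9.08 FPKM in Gsk3sKO. The groups overlapped, and the spread inside each was wide. Vip had a log2 fold change of 0.38 (95% interval -0.32 to 1.08, unadjusted limma p = 0.245, exact permutation p = 0.3), or 0.11 without Ctrl replicate 1.

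Set against Slc32a1 in the same library, the 4 peptide genes had the same signs. This is not separate evidence, since the log2 fold change of Slc32a1, 0.11, was smaller in size than those of the 4 genes. Slc32a1 was also lowest in Ctrl replicate 1, at 29.5 FPKM, which raises the ratios of that library. The ratio of Sst to Slc32a1 was 27.6, 22.5 and 16.3 in Ctrl and 16.3, 16.6 and 18.2 in Gsk3sKO. The ratio of Npy to Slc32a1 was 4.80, 4.04 and 2.75 in Ctrl and 3.28, 2.25 and 2.36 in Gsk3sKO, a log2 difference of -0.54 (2-sided exact permutation p = 0.2). For Vip the log2 difference of the ratio was 0.33 (2-sided exact permutation p = 0.3). Over the 9 ratios these exact permutation p-values ran from 0.2 to 1, and from 0.386 to 1 with Benjamini-Hochberg adjustment over the 9.

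Reln encodes reelin, a large secreted protein that layer 1 and other interneurons of the adult cortex release, and lies on the minus strand of chr5:21884454-22344702. The Reln total was 24.9, 43.5 and 36.1 FPKM in Ctrl and 34.0, 27.7 and 23.0 FPKM in Gsk3sKO. The groups overlapped through Ctrl replicate 1. The log2 fold change was -0.27 (95% interval -0.80 to 0.25, unadjusted limma p = 0.265, exact permutation p = 0.4). Of the libraries left out in turn, Ctrl replicate 1 alone made it a call, at -0.49, and without Ctrl replicate 2 it was -0.10. Its sign depended on how the transcripts were added: weighted by length, Reln stood at 189, 297 and 267 (FPKM times kilobases) in Ctrl and at 290, 280 and 228 in Gsk3sKO. That is a log2 fold change of 0.10 (SE 0.18), which did not pass the test.

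Calb2 encodes calretinin, a calcium-binding protein that many Vip cells contain, on the minus strand of chr8:110142538-110168206. It stood at 5.70, 4.20 and 6.30 FPKM in the Ctrl libraries and at 5.61, 4.37 and 3.75 FPKM in Gsk3sKO. The groups overlapped, and the log2 fold change was -0.20 (95% interval -0.75 to 0.36, unadjusted limma p = 0.436, exact permutation p = 0.4). It ran from -0.34 without Ctrl replicate 2 to -0.09 without Gsk3sKO replicate 3.

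Pvalb encodes parvalbumin, the calcium buffer of fast-spiking interneurons. The total was 21.7, 28.0 and 25.9 FPKM in Ctrl and 27.4, 21.8 and 28.5 FPKM in Gsk3sKO, and the groups covered nearly the same range. Its log2 fold change was 0.04 (95% interval -0.35 to 0.42, unadjusted limma p = 0.836, exact permutation p = 0.7).

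At the level of transcripts, 20 of the 33 listed for the members passed the filter, and 2 of them had an unadjusted p under 0.05 in limma, 1 lower and 1 higher in Gsk3sKO. Over all 21584 transcripts tested the share was 5.56% (3.75% lower and 1.81% higher). No member transcript passed with Benjamini-Hochberg adjustment in limma, and the lowest adjusted p was 0.817. The groups did not overlap for 2 member transcripts, both of Pvalb, 1 lower and 1 higher in Gsk3sKO, where 11.2% of all tested transcripts did not overlap (6.96% lower and 4.28% higher).

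The 2 Pvalb transcripts differed in their start, and their log2 fold changes had opposite signs, of which that of ENSMUST00000120592 passed the test. ENSMUST00000005860 has 4 exons and starts at position 78204237 on the minus strand of chromosome 15. ENSMUST00000120592 has 5 exons and starts 2163 bases further upstream, at 78206400. Their coding exons are the same, with a coding length of 330 bases, so they differ mainly in the untranslated first part of the RNA. The 250 bases before each start are shown because the 2 transcripts were the only members' transcripts whose groups did not overlap. Capitals mark every CG. The first window, upstream of ENSMUST00000120592, is on the minus strand of chr15:78206401-78206650 and the second, upstream of ENSMUST00000005860, on the minus strand of chr15:78204238-78204487, both from RefSeq on GRCm38.p6.
Pvalb, distal start: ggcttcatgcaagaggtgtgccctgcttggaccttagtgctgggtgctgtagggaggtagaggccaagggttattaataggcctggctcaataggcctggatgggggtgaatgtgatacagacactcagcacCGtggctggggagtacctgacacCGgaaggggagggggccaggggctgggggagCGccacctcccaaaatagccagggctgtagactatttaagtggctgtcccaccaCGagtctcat
Pvalb, proximal start: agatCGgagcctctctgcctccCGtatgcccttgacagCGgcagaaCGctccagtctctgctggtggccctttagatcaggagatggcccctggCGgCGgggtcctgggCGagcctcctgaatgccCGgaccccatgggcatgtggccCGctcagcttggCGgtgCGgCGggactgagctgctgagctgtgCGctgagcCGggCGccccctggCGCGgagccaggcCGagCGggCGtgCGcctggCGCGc

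The windows are unlike in composition. The distal one has a GC content of 58.4% and 4 CG pairs, and the proximal one has a GC content of 71.6% and 23 CG pairs. The median over all windows of the table was 52.4% and 6. Neither Pvalb window holds TATAAA on either strand, a sequence present in 12.4% of all windows.

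The transcript from the proximal start had 21.7, 18.1 and 24.3 FPKM in Ctrl against 13.7, 4.27 and 15.9 FPKM in Gsk3sKO. All 3 values of Gsk3sKO were below the lowest of Ctrl. The log2 fold change was -1.02 (SE 0.46, unadjusted limma p = 0.0655, exact permutation p = 0.1). It was -0.49 without Gsk3sKO replicate 2, and it was called without Gsk3sKO replicate 3, at -1.34.

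The transcript from the distal start stood at 0, 9.92 and 1.52 FPKM in the Ctrl libraries and at 13.6, 17.6 and 12.6 FPKM in Gsk3sKO. Here all 3 Gsk3sKO libraries were above the highest of Ctrl, and Ctrl replicate 2 lay nearest to them. It had a log2 fold change of 2.35 (SE 0.83, unadjusted limma p = 0.0286, adjusted p = 0.842; 2-sided exact permutation p = 0.1). The call was lost with any one library left out except Ctrl replicate 2, with log2 fold changes between 1.56 (without Ctrl replicate 1) and 2.45. It was also lost with a pseudocount of 0.1, at 3.63, and with the linear model without moderation. Without Ctrl replicate 2 the log2 fold change was 3.28.

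The distal-start transcript made up 0%, 35.4% and 5.9% of the Pvalb total in Ctrl and 49.8%, 80.5% and 44.2% in Gsk3sKO. It was the larger of the 2 in Gsk3sKO replicate 2 alone. The reads behind the Pvalb total, estimated from the approximate depths, came to between 592 and 1090 per library. Most of the sequence of both transcripts is shared, so the split between them is an estimate that rests on the reads over the parts in which they differ.

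**Figure D4:**
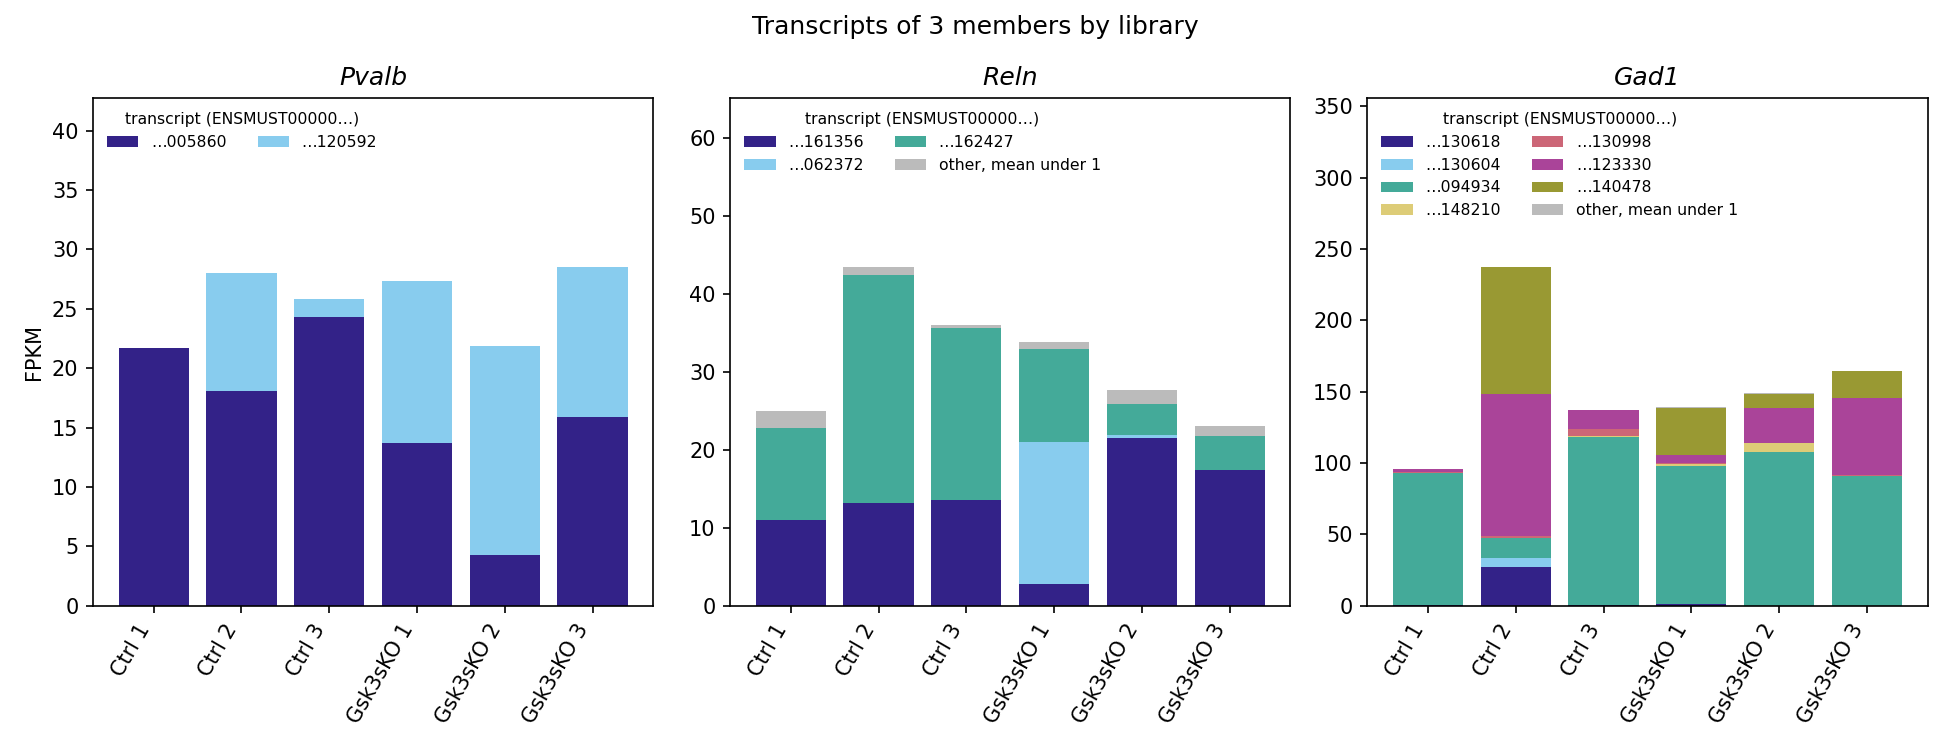
Stacked FPKM of the transcripts of Pvalb, Reln and Gad1 in the 6 libraries (each colour 1 transcript with a mean of at least 1 FPKM, grey the rest). Pvalb keeps its height while the share of ENSMUST00000120592 runs from 0% to 35.4% in Ctrl and from 44.2% to 80.5% in Gsk3sKO, and the Gad1 bar of Ctrl replicate 2 holds little of the full-length ENSMUST00000094934.

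The second member transcript called was Reln ENSMUST00000162427. It is annotated as retaining an intron, has 25 exons and ends inside the gene at position 22003033 of chromosome 5. Its values were 11.8, 29.3 and 22.0 FPKM in Ctrl and 11.9, 4.02 and 4.36 FPKM in Gsk3sKO. Gsk3sKO replicates 2 and 3 lay below every Ctrl library, while Gsk3sKO replicate 1 and Ctrl replicate 1 were nearly equal. Its log2 fold change was -1.56 (SE 0.49, unadjusted limma p = 0.0172, adjusted p = 0.817; 2-sided exact permutation p = 0.2). The call was lost without Ctrl replicate 2 (-1.28) or 3 (-1.48) and without Gsk3sKO replicate 2 (-1.32) or 3 (-1.36), and at -1.56 with the linear model without moderation and with the replicate block.

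The full-length Reln transcripts were not called. ENSMUST00000161356, with 65 exons and a coding length of 10383 bases, had 11, 13.2 and 13.6 FPKM in Ctrl against 2.84, 21.5 and 17.4 FPKM in Gsk3sKO. In Gsk3sKO replicate 1, where it was low, the nearly identical ENSMUST00000062372 stood at 18.2 FPKM, and this one was listed at 0 in all 3 Ctrl libraries. Which of these 2 receives the reads is therefore uncertain. The log2 fold change of ENSMUST00000161356 was -0.22 and did not pass the test, and without Gsk3sKO replicate 1 it turned to 0.58 and was called.

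Other genes of inhibitory signalling were taken from lists written by hand. Of 14 genes for GABA uptake, breakdown and precursor supply, 12 were tested. One of them fell and none rose at an unadjusted limma p under 0.05. This and the counts of the other lists stand beside 5.2% lower and 1.36% higher among all gene totals tested. The one that fell was Slc38a3, a glutamine transporter better known from astrocytes, with 2.72, 5.05 and 2.69 FPKM in Ctrl against 1.54, 1.39 and 1.31 FPKM (log2 fold change -0.86, SE 0.30, unadjusted limma p = 0.019, adjusted p = 0.688, exact permutation p = 0.1). Here, too, the groups did not overlap, as for 12% of all gene totals tested (8.3% lower and 3.71% higher). Slc12a5, the chloride extruder KCC2, stood at 92.9 ± 28.7 FPKM in Ctrl and 99.9 ± 44.7 FPKM in Gsk3sKO (SD, n = 3), and Glul, glutamine synthetase, at 83.5 ± 15.1 and 80.3 ± 8.44 FPKM. The list median was 0.07.

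Of 20 genes in the list of interneuron transcription factors, 18 were tested, 2 fell and none rose (5.2% and 1.36% of all gene totals), with a median of -0.07. Dlx6, a homeobox gene of developing and adult GABAergic neurons, fell in Gsk3sKO, with 4.78, 4.71 and 3.40 FPKM in Ctrl against 2.20, 2.62 and 1.54 FPKM (log2 fold change -0.77, SE 0.26, unadjusted limma p = 0.0188, adjusted p = 0.688, exact permutation p = 0.1). Etv1, which is also a marker of layer 5 pyramidal cells, fell as well, with 9.92, 9.65 and 13.3 FPKM in Ctrl against 7.45, 5.26 and 8.36 FPKM (log2 fold change -0.58, SE 0.23, unadjusted limma p = 0.0322, adjusted p = 0.741, exact permutation p = 0.1). The groups did not overlap for either gene. Satb1 and Nr2f2, the other abundant factors of the list, had log2 fold changes of 0.10 and 0.30 and did not pass the test.

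Among 25 other markers of interneuron subclasses, 20 were tested, 1 fell and none rose, with a median of 0.08, and 1 of 20 is near the 5.2% lower among all gene totals. The one was Calb1, the gene of calbindin, which pyramidal cells of the upper layers also make. It had 126, 69.4 and 63.3 FPKM in Ctrl against 55.9, 41.6 and 59.6 FPKM in Gsk3sKO (log2 fold change -0.66, SE 0.27, unadjusted limma p = 0.0375, adjusted p = 0.75, exact permutation p = 0.1). The groups did not overlap, and Ctrl replicate 1 was well above the other 2. Crh, which was not called, also had no overlap and was lower in Gsk3sKO. Over all gene totals tested, 12% did not overlap (8.3% lower and 3.71% higher). Penk, the enkephalin precursor, was the most abundant of the list at 96.5, 112 and 295 FPKM in Ctrl and 172, 136 and 281 FPKM in Gsk3sKO. Lamp5, a marker of neurogliaform cells, stood at 74.7 ± 8.86 and 75.4 ± 12.9 FPKM (SD, n = 3).

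The receptors of the member peptides and of reelin made up another list. Of its 15 genes, 12 were tested, 1 fell and none rose, with a median of -0.01. Sstr1, a somatostatin receptor, fell in Gsk3sKO, with 6.91, 7.82 and 10.1 FPKM in Ctrl against 6.94, 2.08 and 2.08 FPKM (log2 fold change -1.12, SE 0.38, unadjusted limma p = 0.0185, adjusted p = 0.688, exact permutation p = 0.2), with Gsk3sKO replicate 1 inside the Ctrl range. Dab1, the adaptor that relays the reelin signal, was at 32.7 ± 5.19 and 32.7 ± 5.48 FPKM (SD, n = 3). Cckbr, the cholecystokinin receptor of the brain, was at 17.0 ± 1.53 and 18.1 ± 2.93 FPKM, and the reelin receptor Vldlr at 14.1 ± 2.95 and 14.5 ± 0.896 FPKM.

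**Figure D5:**
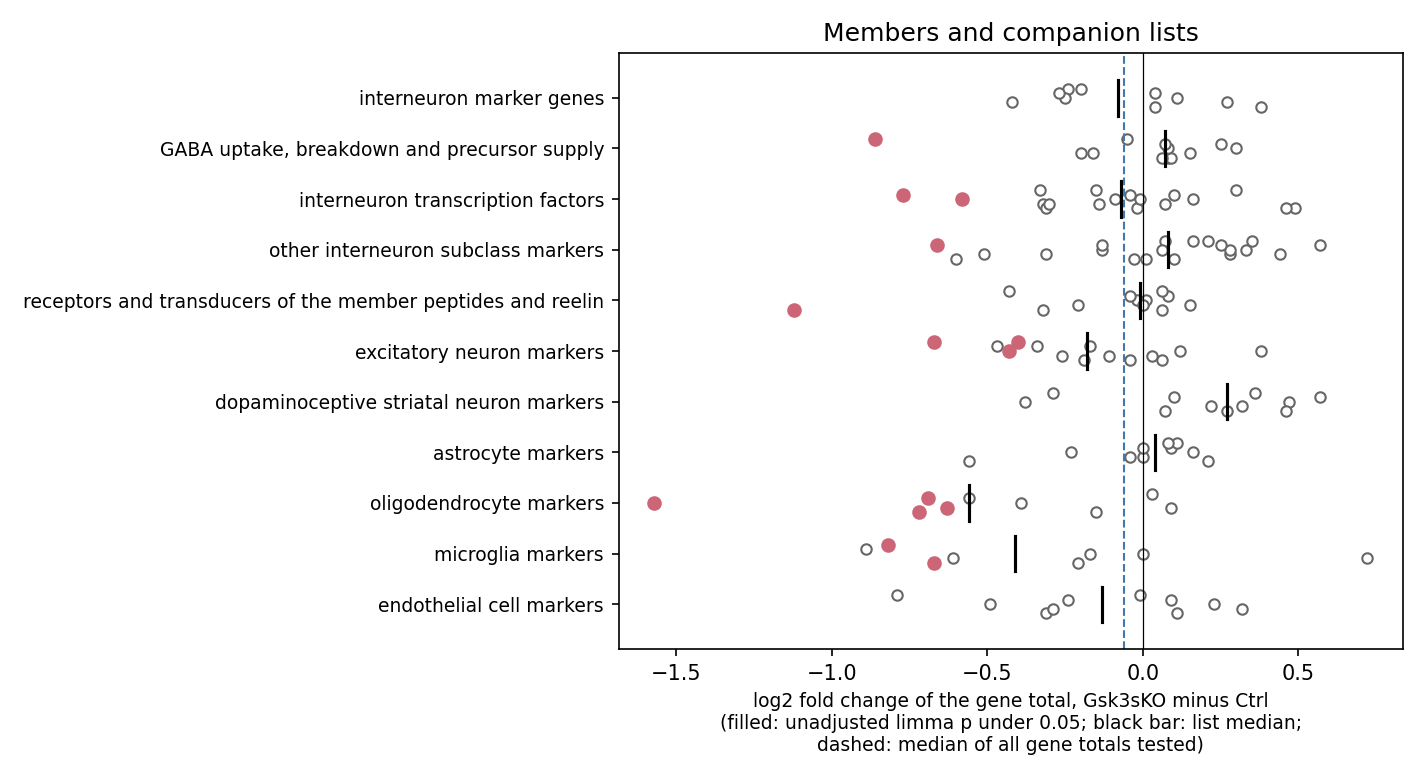
Log2 fold change of each tested gene total (points; filled red at an unadjusted limma p under 0.05) in the member list and 10 companion lists, with the list median (black bar) and the median of all gene totals tested (dashed line at -0.06). No filled point lies to the right of 0, and the member list has none.

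Markers of other cell types are given beside the same shares of all gene totals, 5.2% lower and 1.36% higher (669 and 175 totals, or 502 and 307 with median-ratio scaling). Among excitatory neuron markers 3 of 14 tested genes fell and none rose (median -0.18), namely Tbr1, Neurod1 and Cux2, with log2 fold changes of -0.40, -0.67 and -0.43. The most abundant of them, Nrgn, Camk2a and Slc17a7, had log2 fold changes of -0.34, 0.12 and -0.19 and did not pass the test. Among oligodendrocyte markers 4 of 9 tested fell and none rose (median -0.56). These were Mog, Mag, Cnp and Cldn11, with log2 fold changes of -1.57, -0.69, -0.72 and -0.63, and Mog was listed at 0 in Gsk3sKO replicates 2 and 3. The abundant Mbp and Mobp had log2 fold changes of -0.15 and 0.03 and did not pass, and the summed level of all 11 lay between 131 and 199 FPKM in Ctrl and 137 and 173 FPKM in Gsk3sKO. Among microglia markers 2 of 8 tested fell and none rose (median -0.41), namely C1qa and C1qb with log2 fold changes of -0.82 and -0.67, and the sum over 10 genes was 42.1 to 54.1 FPKM in Ctrl and 31.6 to 41.8 FPKM in Gsk3sKO.

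None of the 10 astrocyte markers passed the test (median 0.04), and Slc1a2, Aldoc and Slc1a3, the highest of them, had log2 fold changes of 0.11, -0.00 and 0.09. None of the 10 endothelial markers passed either (median -0.13, summed level 21.4 to 85.9 FPKM in Ctrl and 27.8 to 72.0 FPKM in Gsk3sKO), with Slco1a4, Flt1 and Cldn5 the highest of them at -0.29, 0.23 and -0.31. None of the 11 tested markers of dopaminoceptive striatal neurons passed (median 0.27, summed level of 12 genes 102 to 182 FPKM in Ctrl and 128 to 160 FPKM in Gsk3sKO). Of these, Ppp1r1b and Foxp1 had log2 fold changes of 0.27 and 0.10. In none of these lists did a gene pass with Benjamini-Hochberg adjustment in limma. The part of these cells in the levels of the members was not tested.

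Gene totals were compared with the median profile of the members by their centred levels over the 6 libraries. Only those with an SD at least that of the median profile were ranked. The 3 nearest to this profile were Gm7324, Hexim1 and Pi4ka. Their root mean square differences from it were 0.036, 0.042 and 0.045 on the log2(FPKM + 1) scale, over 6 libraries. The median profile itself was at -0.25, 0.17 and 0.06 in Ctrl and at 0.10, -0.11 and -0.04 in Gsk3sKO.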

How the data were processed

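RNAseq of RNA bound to tagged ribosomes was done for 3 Ctrl and 3 Gsk3sKO libraries of mPFC D2 neurons, grouped and numbered by the submitters' sample titles. The authors deposited 1 FPKM per transcript and library, from libraries made with a stranded total RNA kit. The submitters' processing notes list HISAT2 2.1.0, SAMtools 1.9 and StringTie 1.3.4d and the GRCm38 build, while roles and settings were not given in the sources used here. The deposited fold, p and q of the authors' own comparison were not used. The short RNA Gm23935 took 12.9% to 24.9% of the summed FPKM in Ctrl and 7.8% to 13.4% in Gsk3sKO. Since FPKM divides by length, this overstates the share of fragments that a short RNA takes. Its share of fragments was not computed, and its effect on the other FPKM was not tested.

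FPKM were summed by gene identifier. Transcripts (114237 of 115220 found) were placed with GENCODE M21 on GRCm38, and 250 bases before each start were taken from a RefSeq table of GRCm38.p6. Differences were tested over all gene totals and all transcripts with limma 3.58.1 in R 4.3.3 (lmFit, eBayes with a trend) on log2(FPKM + 1), at a mean of at least 1 FPKM, 2-sided, without covariates. A call is an unadjusted p under 0.05, and the Benjamini-Hochberg adjusted p is given beside it. The model was run on simulated data, with normally distributed values drawn separately for each library. These do not imitate an uneven split of reads between transcripts, so they are no check of the member transcripts called. Reads per library were estimated from the step that 1 read makes in low FPKM of transcripts over 800 bases. Other steps ran in Python 3.11.15. The members and lists were chosen with earlier results of these data known. Named genes are the members and their tested transcripts, Gsk3b, the genes called and the 3 most abundant in each list, and the 3 most like the median member profile. Some genes that this rule names are not reported here. Other genes (Drd2, Gm14205, Gm10475 and Gm23935) were named after their values were seen. Gm10475 overlaps Reln on the opposite strand. Alternatives were median-ratio scaling, a pseudocount of 0.1, no filter, a mean of at least 5 FPKM, a linear model without moderation, leaving out each library, a replicate block and, added later, length-weighted gene totals.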

Additional observations from a re-analysis of the deposited data

How the results depend on the processing

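No member gene total was called in limma, and this count was also 0 under median-ratio scaling, a pseudocount of 0.1, no filter, a mean of at least 5 FPKM (Calb2 then left the test), the linear model without moderation and length-weighted totals. It was 1 with the replicate block (Npy, log2 fold change -0.42), and between 0 and 1 with a library left out. Of 289 values of members under the alternatives, 252 kept their sign and side of the threshold, 13 lost a call, 7 gained one and 17 changed sign. All changes of sign were in values that did not pass the test with all libraries, and only that of ENSMUST00000161356 reached a call.

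Without Ctrl replicate 1 the sign changed for the totals of Gad1 (-0.26), Pvalb (-0.06) and Slc32a1 (-0.06) and for the transcripts ENSMUST00000123330 (-0.85) and ENSMUST00000156728 (-0.02). Without Ctrl replicate 2 it changed for ENSMUST00000094934 (-0.09), and ENSMUST00000130604 had no value, being at 0 in all other libraries. Without Ctrl replicate 3 it changed for Gad1 (-0.00) and ENSMUST00000156728 (-0.17). Without Gsk3sKO replicate 1 it changed for Pvalb (-0.01), ENSMUST00000156728 (-0.27) and ENSMUST00000161356 (0.58). Without Gsk3sKO replicate 2 it changed for ENSMUST00000156728 (-0.02), and without Gsk3sKO replicate 3 for Gad1 (-0.02), Pvalb (-0.03) and ENSMUST00000123330 (-0.31). A pseudocount of 0.1 took ENSMUST00000156728 to -0.01, and length-weighted totals took Reln to 0.10. With 1 library left out, the values of these ran from -0.26 to 0.39 for the Gad1 total, -0.06 to 0.15 for Pvalb, -0.06 to 0.21 for Slc32a1, -0.09 to 1.39 for ENSMUST00000094934, -0.85 to 1.71 for ENSMUST00000123330, -0.27 to 0.44 for ENSMUST00000156728 and -0.69 to 0.58 for ENSMUST00000161356. Leaving out Ctrl replicate 2 gave the Gad1 transcript ENSMUST00000140478 a log2 fold change of 4.26, and a call.

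Of all gene totals, 844 were called, 669 lower and 175 higher, and with median-ratio scaling 502 lower and 307 higher. Their count ran from 574 to 1175 with a library left out. The count of transcripts called was 1200, 1917 without a filter, 590 at a mean of at least 5 FPKM, and 894 to 1733 with a library left out. The causes were not tested. Same-numbered libraries did not deviate together (correlations of -0.03, -0.01 and -0.08 over gene totals), and differently numbered ones had correlations of -0.03 to 0.05. The labels do not say whether the numbers pair the libraries, and these correlations cannot settle it. The replicate block gave 821 gene totals and 1103 transcripts, a call for the Pvalb transcript ENSMUST00000005860, and none for Reln ENSMUST00000162427. The linear model without moderation called neither this transcript nor Pvalb ENSMUST00000120592, and a pseudocount of 0.1 did not call the latter (3.63).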
